A study of Mus musculus with 32 samples.

Results

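Genes that PPAR receptors are known to switch on for the use of fatty acids are described here in mouse bone marrow whose adiponectin-Cre lineage was made sensitive to diphtheria toxin. They were taken as a named list of 10 genes (Ucp2, Ucp3, Acot1, Cpt1a, Pdk4, Angptl4, Plin2, Acadm, Acadl and Hadha), chosen by name and not by a threshold, out of 41388 genes in the count tables. The choice was made with earlier results of these data known. All 10 passed the filter on low counts that left 14527 genes for testing. The data are RNA-seq counts of whole femur marrow from 32 mice, each with a library of its own, and 4 mice make up each of 8 groups. All mice were C57BL/6, carried the floxed diphtheria toxin receptor allele (DTR flox, the inducible or iDTR allele) and were 2 months old.

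DTRADQ mice also carried adiponectin-Cre (ADQ Cre+), so that the receptor is made where the adiponectin promoter drives Cre, which in marrow covers stromal cells of the adipocyte lineage as well as fat cells. Controls were Cre-negative littermates (DTR flox, No Cre). Diphtheria toxin (DT) stops protein synthesis in cells that carry a receptor for it, and mouse cells without such a receptor are largely resistant. Mice of each genotype received 100 ng of DT by intraperitoneal injection daily for 1, 2 or 3 days, or no DT. The treated controls therefore share the allele and the toxin with the treated DTRADQ mice and differ from them in Cre.

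PPAR receptors are nuclear receptors that bind fatty acids and, paired with an RXR receptor, bind DNA at an element called DR1, a direct repeat of the motif AGGTCA with 1 base between the copies. Their targets cover each step of fatty acid use. Plin2 coats the lipid droplet, Angptl4 is a secreted inhibitor of lipoprotein lipase, Acot1 splits fatty acyl-CoA in the cytosol, and Cpt1a makes the acylcarnitine that enters mitochondria. Acadm, Acadl and Hadha are enzymes of beta-oxidation in the mitochondrial matrix, Pdk4 shuts off pyruvate dehydrogenase when fat is burnt, and Ucp2 and Ucp3 are carriers of the inner mitochondrial membrane. In marrow, fat cells, macrophages, neutrophils and red cell precursors all handle lipid, and the libraries average over all of them. In such a mixture fewer cells of a type and less RNA per cell cannot be told apart.

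RefSeq promoter windows (GRCm38.p6, 250 bases before the annotated start to 50 after it) were matched for 9 of the 10 genes, all but Angptl4. In the 250 bases before the start, the DR1 element was searched on both strands, allowing at most 2 mismatches in its 12 fixed bases, and the single motif AGGTCA was searched without mismatch, including copies inside a DR1 match. A DR1 match was found in Plin2 and Ucp3, and 3.24% of 32851 windows held one. A single motif was found in Ucp3, Cpt1a, Plin2 and Acadm, and 14% of windows held one. Acot1 and Pdk4, which have the largest changes at day 3, held neither, nor did Ucp2, Acadl and Hadha. The 160-base stretches of Plin2, Cpt1a and Ucp3 show the matches among the genes that were higher after toxin, and they are printed 5′ to 3′ on the strand of the gene, with the matches in capitals. Plin2 lies on the minus strand at chr4:86670150-86670309, and the other stretches lie on the plus strand at chr19:3323130-3323289 for Cpt1a and chr7:100472829-100472988 for Ucp3.
Plin2: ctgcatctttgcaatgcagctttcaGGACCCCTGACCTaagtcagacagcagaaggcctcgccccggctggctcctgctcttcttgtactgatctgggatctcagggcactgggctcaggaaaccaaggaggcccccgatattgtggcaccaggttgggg
Cpt1a: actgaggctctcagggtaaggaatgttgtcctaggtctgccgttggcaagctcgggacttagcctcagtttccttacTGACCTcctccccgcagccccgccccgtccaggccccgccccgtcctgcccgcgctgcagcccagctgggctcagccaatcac
Ucp3: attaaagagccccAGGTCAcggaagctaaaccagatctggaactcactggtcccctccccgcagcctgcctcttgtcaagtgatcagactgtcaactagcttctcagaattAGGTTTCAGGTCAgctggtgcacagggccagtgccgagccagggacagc

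In Plin2 the capitals are a DR1 match on the other strand, whose sequence there is AGGTCAGGGGTCC, and it begins 225 bases before the start. In Cpt1a they are 1 single motif read on the other strand, 94 bases before the start. In Ucp3 the first run of capitals is a single motif 149 bases before the start, and the second is the DR1 match AGGTTTCAGGTCA, which begins 51 bases before the start. These matches are descriptions of the letters, and no binding was measured.

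The libraries held 8.97 to 22.93 M (mega) counted reads. The 8 libraries of day 3 carry a lane number in their label, lane 8, where the other 24 name all lanes of a run, so that day and lane label cannot be told apart within a genotype, while the genotypes at day 3 share the label. Of 16 stromal lineage markers, 15, 15 and 13 were lower in DTRADQ marrow than in controls at days 1, 2 and 3, and Pdgfrb was higher at day 3. Adipoq, the adiponectin gene, was at 0.264 to 0.6 CPM (counts per M counted reads, with library sizes scaled by the TMM method) in DTRADQ marrow at day 3 and at 32.1 to 54.3 CPM in controls. The summed level of 12 adipocyte markers, Adipoq among them, at day 3 was 130 to 157 CPM in DTRADQ and 165 to 205 CPM in controls. Of the 8 tested, 3 were lower at day 3 (Adipoq, Cfd and Cidec), 0 higher and 5 did not pass, where 14.1% of all genes were lower. Fabp4, also in the sum, had a day 3 mean of 105 CPM in DTRADQ and 94.4 CPM in controls. The fat cell hormone gene Lep had 4 reads in all 32 libraries together. Other cell markers moved too: 10 of 13 tested skeletal muscle markers were higher in DTRADQ at day 3 (summed level 144 to 740 CPM against 55.9 to 81.7 CPM), 5 of 14 neutrophil markers were higher, and of 17 erythroid markers 12 were lower and 3 (Alas2, Hba-a1 and Hba-a2) higher. Their part in the results below was not tested except where a value is given. Reads of Hba-a1 and Hba-a2 can be split by the counting and are uncertain.

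Between the genotypes, Plin2, Cpt1a and Acot1 were higher in DTRADQ marrow on toxin days 2 and 3, Angptl4 and Pdk4 at day 3 and Ucp3 at day 1, while Ucp2 and the matrix enzymes Acadm, Acadl and Hadha did not pass on any toxin day. With edgeR's quasi-likelihood test and Benjamini-Hochberg adjustment over all 14527 genes, which stands behind every adjusted p given here unless another tool is named (threshold 0.05), 1 of the 10 genes was higher at day 1 (Ucp3), 3 at day 2 (Cpt1a, Acot1 and Plin2) and 5 at day 3 (Pdk4, Cpt1a, Plin2, Acot1 and Angptl4). None was lower on a toxin day. The day 1 count rests on Ucp3 alone, which passed the low-count filter through the libraries where it was high, as given with that gene. Among all genes tested, 0.888% were higher and 3.02% lower at day 1, 4.4% higher and 4.12% lower at day 2, and 8.8% higher and 14.1% lower at day 3, so that 3.9%, 8.52% and 22.9% were called in either direction. The median log2 change of the 10 genes was 0.21, 0.67 and 0.81 at days 1, 2 and 3, beside −0.01, −0.04 and −0.02 over all genes tested. Because the list was chosen with earlier results known, counts and medians beside all genes, here and below, are descriptions and not a test of the list. Without DT 1 of the 10 was lower (Acadl) and none higher, where 12.7% of all genes were higher, 14.4% lower and 27.1% were called in either direction. These shares without DT depend on the spread taken from the other groups. In a fit of only the groups compared, 0 of 13308 genes were higher and 0 lower.

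**Figure D1:**
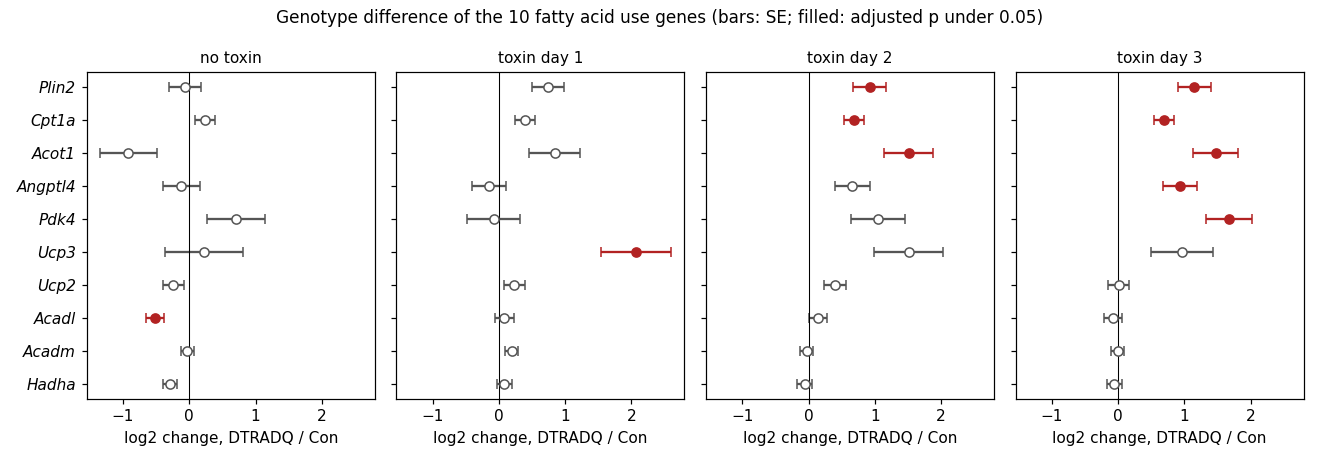
Log2 change of the 10 genes between DTRADQ and control marrow (x axis) without toxin and on toxin days 1, 2 and 3. Points are the fitted changes and bars their SE, from 4 libraries per group, and filled points passed an adjusted p of 0.05. The 5 filled points of day 3 lie between 0.69 and 1.67, and the 3 matrix enzymes at the foot lie between −0.08 and −0.01 there.

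The samples without toxin are the start of every comparison against no DT, and the control ones were uneven. Replicates 3 and 4 of the controls without DT had the smallest totals (9.49 and 8.97 M reads) and the highest summed erythroid markers of that group, 281521 and 476566 CPM, against 82160 and 126235 CPM in replicates 1 and 2. Several of the 10 genes divided the same way in that group, as given with each gene. For Plin2, Cpt1a, Angptl4, Acadm, Acadl and Hadha, values without both libraries are given too.

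Plin2, or perilipin 2, coats the lipid droplets of most cell types (ENSMUSG00000028494, GRCm38 chromosome 4, 86648386 to 86670060, minus strand). At day 3 its level was 348, 354, 363 and 355 CPM in the 4 DTRADQ libraries and 137, 189, 187 and 127 CPM in controls. Every DTRADQ library was above every control, and the DTRADQ libraries lay closer together. Plin2 was higher by 1.15 log2 units (SE 0.25, 2.22-fold, adjusted p = 8.5e-04).

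At day 2 the Plin2 levels were 273, 287, 319 and 354 CPM in DTRADQ and 172, 151, 158 and 172 CPM in controls, again with no overlap. The difference was 0.92 (SE 0.25, adjusted p = 0.0177), and the call was lost without DTRADQ replicate 3 (adjusted p = 0.0519) or control replicate 3 (0.0558) of day 2. At day 1 the libraries did not overlap either, with 214, 335, 299 and 297 CPM against 166, 200, 165 and 155 CPM. The day 1 difference of 0.74 (SE 0.24) had an adjusted p of 0.0909, and it passed when only the groups compared were fitted (0.0046).

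Without DT, Plin2 was at 163, 150, 143 and 169 CPM in DTRADQ and at 212, 263, 116 and 56.9 CPM in controls. The controls spanned the DTRADQ libraries on both sides, with the low values in the 2 erythroid-rich libraries, and the difference was −0.06 (SE 0.24, adjusted p = 0.8922). Within DTRADQ marrow Plin2 rose by 0.87, 0.98 and 1.18 log2 units at days 1, 2 and 3 (adjusted p = 0.0298, 0.0112 and 5.2e-04). The day 1 rise is the least steady of these: leaving out any 1 of 7 of the 8 libraries, all but DTRADQ day 1 replicate 1, took its adjusted p to between 0.0515 and 0.0928. With the mean log2 level of skeletal muscle markers as a covariate, the rises of day 1 (0.70, adjusted p = 0.2414) and day 2 (0.82, 0.0719) did not pass. Within controls the changes were 0.08, 0.01 and −0.02, none past the threshold.

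The genotype difference in the Plin2 response, the change in DTRADQ minus that in controls, was 1.21 at day 3 (SE 0.35, adjusted p = 0.0123) and did not pass at day 1 (0.80, adjusted p = 0.1273) or day 2 (0.97, 0.0640). Without control no-DT replicate 2 the day 3 difference was 0.89 (adjusted p = 0.0505), and when only the groups compared were fitted its adjusted p was 0.0750. Without control no-DT replicate 4 the day 1 and day 2 differences passed, at 1.06 (adjusted p = 0.0044) and 1.25 (0.0014). Without control replicates 3 and 4 together, Plin2 before toxin was lower in DTRADQ than in controls (−0.60, adjusted p = 0.0109), and the controls then fell with toxin, by 0.45, 0.53 and 0.55 log2 units at days 1, 2 and 3 (adjusted p = 0.0367, 0.0160 and 0.0096). The direction of the Plin2 change in controls thus depends on those 2 libraries. The genotype comparisons on toxin days are between other libraries, but those 2 enter the estimate of spread that all comparisons share. Without them the Plin2 difference between genotypes at day 1 also passed. Among all genes, those called between genotypes at day 3 then went from 1279 higher and 2051 lower to 2294 and 2729.

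**Figure D2:**
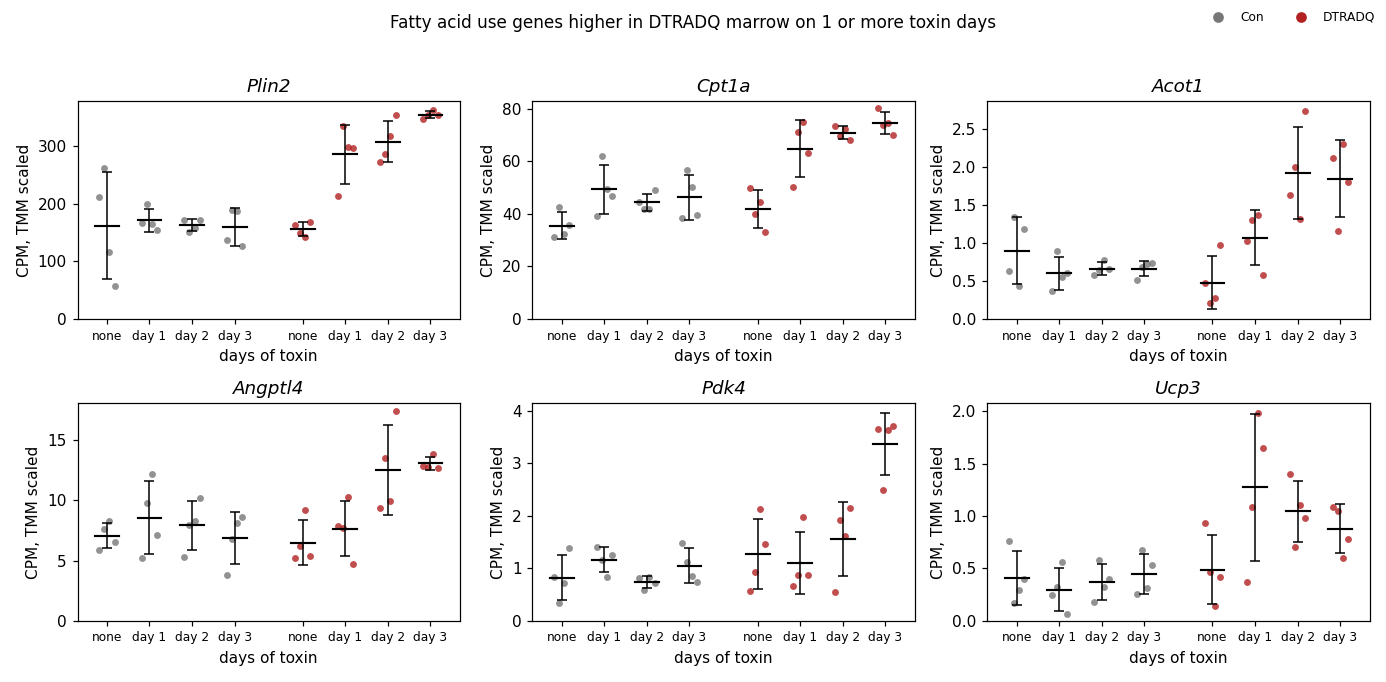
CPM (y axis, TMM scaled) of Plin2, Cpt1a, Acot1, Angptl4, Pdk4 and Ucp3 in each library by days of toxin (x axis), controls in grey and DTRADQ in red. Each point is 1 mouse, horizontal lines are group means and bars are SD (n = 4). At day 3 the DTRADQ libraries of Plin2 (348 to 363 CPM) lie above all controls (127 to 189 CPM), and Pdk4 departs from the controls at day 3 where Cpt1a and Acot1 had done so at day 2.

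Angptl4 (ENSMUSG00000002289, chromosome 17, 33773750 to 33781575, minus strand) encodes a secreted protein that holds back lipoprotein lipase and thereby the entry of fatty acids from blood. Its day 3 levels were 12.9, 12.8, 13.9 and 12.7 CPM in DTRADQ and 3.8, 6.83, 8.13 and 8.63 CPM in controls. No control reached the DTRADQ libraries, which lay close together. The difference was 0.93 (SE 0.26, 1.91-fold, adjusted p = 0.0079).

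At day 2 the Angptl4 levels were 9.35, 13.5, 9.93 and 17.4 CPM against 5.27, 7.96, 8.27 and 10.2 CPM. The groups overlapped, and the difference of 0.66 (SE 0.26) had an adjusted p of 0.1059. At day 1 and without DT the differences were −0.15 and −0.12, with adjusted p of 0.8266 and 0.7831. Within DTRADQ marrow Angptl4 rose by 0.95 at day 2 (adjusted p = 0.0207) and 1.01 at day 3 (0.0036). The day 2 rise was lost without DTRADQ no-DT replicate 1 or 4 or day 2 replicate 2 or 4 (adjusted p up to 0.0834), and with muscle markers as a covariate (0.89, 0.0711). The genotype difference in the response was 1.05 at day 3 (SE 0.37, adjusted p = 0.0429), a value near the threshold that was lost on leaving out any 1 of 11 of the 16 libraries, as listed with the effects of processing. It was also lost with muscle markers as a covariate (1.12, adjusted p = 0.0551) and without control no-DT replicates 3 and 4 together (1.00, 0.0784).

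Cpt1a (ENSMUSG00000024900, chromosome 19, 3323301 to 3385732, plus strand) is the carnitine palmitoyltransferase of the outer mitochondrial membrane, the step that controls the entry of long-chain fatty acids. At day 3 its levels were 80.3, 73.8, 74.6 and 70.2 CPM in DTRADQ and 38.4, 56.5, 50.4 and 39.7 CPM in controls. At day 2 they were 73.5, 69.5, 72.2 and 68.2 CPM against 44.6, 42, 42 and 48.9 CPM. On both days all DTRADQ libraries were above all controls. Cpt1a was higher by 0.68 at day 2 (SE 0.15, 1.60-fold, adjusted p = 0.0039) and 0.69 at day 3 (SE 0.15, 1.62-fold, adjusted p = 7.3e-04).

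At day 1 the Cpt1a levels overlapped, with 50.2, 71, 74.9 and 63 CPM in DTRADQ and 39.1, 61.9, 49.3 and 46.8 CPM in controls (0.39, SE 0.15, adjusted p = 0.1415). Without DT they were 49.9, 39.9, 44.5 and 32.9 CPM against 31.1, 42.5, 32.4 and 35.8 CPM, also overlapping (0.24, SE 0.15, adjusted p = 0.2466). Cpt1a differed from Plin2 in the controls, where it rose with toxin at day 1 (0.48, adjusted p = 0.0140) and day 3 (0.38, adjusted p = 0.0490), and had 0.32 at day 2 (adjusted p = 0.1054). The day 1 rise in controls was lost without control day 1 replicate 2 (0.35, adjusted p = 0.0856) and without control no-DT replicates 3 and 4 together (0.44, 0.0792), and it did not pass in a fit of only the groups compared (0.52, 0.1196). The day 3 one was lost without control no-DT replicate 1 or 3 or day 3 replicate 2 or 3 (adjusted p from 0.0973 to 0.1985), and without control no-DT replicates 3 and 4 together (0.35, 0.1662). It did not pass either with DESeq2 (0.0501), with its size factors in edgeR (0.0584), with muscle markers as a covariate (0.0546) or in a fit of only the groups compared (0.2228).

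In DTRADQ marrow Cpt1a rose by 0.63, 0.76 and 0.84 at days 1, 2 and 3 (adjusted p = 0.0072, 0.0011 and 7.7e-05), and the day 1 rise was lost without DTRADQ no-DT replicate 4 (0.53, adjusted p = 0.0529) and with muscle markers as a covariate (0.55, 0.0807). The genotype difference in the response was 0.16, 0.44 and 0.45, and none of these passed (adjusted p = 0.6741, 0.1726 and 0.1203). The interval of the day 3 value, 0.05 to 0.86, covers counts and spread but not the number of genes tested. Thus Cpt1a was higher in DTRADQ than in controls on days 2 and 3, and its response to toxin was not shown to differ between genotypes.

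Acot1 (ENSMUSG00000072949, chromosome 12, 84009502 to 84017670, plus strand) is a cytosolic thioesterase, which frees fatty acids from CoA. It was among the rarest of the 10 genes, with 3 to 39 reads per library, and its reads can be confused with those of its near relative Acot2, so its values are uncertain. At day 3 it was at 2.13, 1.16, 2.31 and 1.81 CPM in DTRADQ and at 0.512, 0.679, 0.722 and 0.736 CPM in controls. At day 2 it was at 1.64, 2.01, 1.32 and 2.74 CPM against 0.58, 0.647, 0.775 and 0.656 CPM. Every DTRADQ library of those days was above every control. Acot1 was higher by 1.51 at day 2 (SE 0.37, 2.85-fold, adjusted p = 0.0088) and by 1.47 at day 3 (SE 0.34, 2.77-fold, adjusted p = 0.0019).

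The day 1 levels of Acot1 were 1.03, 1.31, 1.37 and 0.582 CPM in DTRADQ and 0.368, 0.894, 0.557 and 0.599 CPM in controls. They overlapped, and the difference of 0.84 (SE 0.39) had an adjusted p of 0.2692. Without DT the order was the other way, with 0.467, 0.207, 0.274 and 0.97 CPM in DTRADQ and 0.625, 1.35, 0.436 and 1.19 CPM in controls (−0.92, SE 0.43, adjusted p = 0.1078), and without DTRADQ replicate 4 this difference passed (−1.46, adjusted p = 0.0150). Within DTRADQ marrow Acot1 rose by 2.01 at day 2 and 1.97 at day 3 (adjusted p = 8.8e-04 and 1.9e-04), the largest rises among the 10 genes. The day 1 change was 1.21 (adjusted p = 0.0700).

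Acot1 was also the gene whose genotype difference in the response passed on every day, at 1.77, 2.44 and 2.39 log2 units (SE 0.58, 0.56 and 0.55, adjusted p = 0.0416, 0.0053 and 0.0022). The day 1 value was lost on leaving out any 1 of 11 of the 16 libraries, listed with the effects of processing, with adjusted p from 0.0587 to 0.1430. Those of days 2 and 3 passed under every left-out library. Acot2, which makes the mitochondrial relative, was higher in DTRADQ at day 3 (24.6 against 15.9 CPM, log2 change 0.62, adjusted p = 0.0136) and not at day 2 (0.07, adjusted p = 0.8619), when Acot1 was higher. Without control day 3 replicate 3 the Acot2 difference was 0.52 (adjusted p = 0.0560).

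Pdk4 (ENSMUSG00000019577, chromosome 6, 5483351 to 5496309, minus strand) is a kinase that inactivates pyruvate dehydrogenase and so spares glucose. Its day 3 levels were 3.65, 2.49, 3.64 and 3.71 CPM in DTRADQ and 1.49, 1.12, 0.858 and 0.736 CPM in controls, on 4 to 76 reads per library over the series. All DTRADQ libraries were above all controls. The difference of 1.67 (SE 0.35, 3.19-fold, adjusted p = 6.9e-04) was the largest of the 10 genes at day 3.

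Before day 3 Pdk4 did not separate the genotypes. At day 2 it was at 0.545, 1.92, 1.62 and 2.15 CPM in DTRADQ and at 0.811, 0.582, 0.84 and 0.722 CPM in controls. DTRADQ replicate 1 lay below all controls and the other three above, and the difference of 1.05 (SE 0.41) had an adjusted p of 0.1006. It passed without that library (1.37, adjusted p = 0.0229). At day 1 the difference was −0.08 (SE 0.40) and without DT 0.71 (SE 0.44), neither past the threshold.

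Pdk4 is strongly expressed in skeletal muscle, and muscle markers were higher in the same day 3 DTRADQ libraries. Their summed level was 144, 740, 146 and 311 CPM in DTRADQ replicates 1 to 4. With the mean log2 level of the muscle markers as a covariate, the Pdk4 difference was 1.28 (adjusted p = 0.0359), and all 5 genes called at day 3 were called with it. Within DTRADQ marrow Pdk4 rose at day 3 by 1.43 (SE 0.36, adjusted p = 0.0029), and the genotype difference in its response, 0.96, did not pass (adjusted p = 0.2489).

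Ucp3 (ENSMUSG00000032942, chromosome 7, 100472990 to 100486432, plus strand) is the uncoupling protein relative of muscle and brown fat, and its neighbour Ucp2 (ENSMUSG00000033685, 100493337 to 100502020, plus strand) is the form of blood cells. Ucp3 was the rarest of the 10 genes, with 1 to 26 reads per library. It passed the low-count filter through 12 libraries above 0.706 CPM, of which 9 were DTRADQ with toxin, so that it was tested only through the groups where it was high. Without a filter its day 1 difference was 2.06 (adjusted p = 0.0178). In a fit of only the day 1 groups Ucp3 did not pass the filter and was not tested. At day 1 it was then absent from the count, as given with the effects of processing. At day 1 it was at 0.368, 1.09, 1.98 and 1.65 CPM in DTRADQ and at 0.245, 0.319, 0.557 and 0.0665 CPM in controls. DTRADQ replicate 1 lay within the controls and the others above them.

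The day 1 difference of Ucp3 was 2.07 (SE 0.53, 4.19-fold, adjusted p = 0.0187). The call was lost without DTRADQ replicate 3 (adjusted p = 0.1035) or 4 (0.0578) or control replicate 4 (0.0825) of day 1. At day 2 the levels were 1.4, 0.699, 1.1 and 0.979 CPM against 0.174, 0.582, 0.323 and 0.394 CPM. They did not overlap, and the difference of 1.51 (SE 0.52) had an adjusted p of 0.0652, or 0.0401 with DESeq2. At day 3, with 0.96 (SE 0.47, adjusted p = 0.1390), the groups overlapped. With muscle markers as a covariate the day 1 difference was 2.06 (adjusted p = 0.0205).

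Ucp2 was the most abundant of the 10 genes per length of transcript. At day 1 it was at 1692, 1471, 1837 and 1986 CPM in DTRADQ and at 1212, 1614, 1760 and 1374 CPM in controls, which overlapped. At day 2 it was at 1928, 1761, 1533 and 1928 CPM against 1155, 1371, 1406 and 1492 CPM, which did not. The genotype differences were −0.24 without DT and 0.23, 0.40 and 0.01 at days 1, 2 and 3, and none passed (adjusted p = 0.2882, 0.5103, 0.1149 and 0.9805). The day 2 difference passed with DESeq2 (0.42, adjusted p = 0.0278) and in a fit of only the groups compared (0.40, 0.0364).

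Within DTRADQ marrow Ucp2 was higher on days 1 and 2 than at the start. Its 4 libraries without DT lay at 1083, 1116, 1206 and 1069 CPM, those of days 1 and 2 all above them, and those of day 3 at 1274, 1249, 1351 and 1165 CPM, overlapping the start. The rises were 0.64 at day 1 (SE 0.16, adjusted p = 0.0138) and 0.68 at day 2 (SE 0.16, 0.0079), and the day 3 change was 0.17 (adjusted p = 0.4473). The day 1 rise was lost without DTRADQ no-DT replicate 4 or DTRADQ day 1 replicate 4 (adjusted p from 0.0528 to 0.0549), without a filter on low counts and with muscle markers as a covariate (0.0602 and 0.1651). Day 3 was not tested against day 2, and the day 3 libraries differ in lane label.

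**Figure D3:**
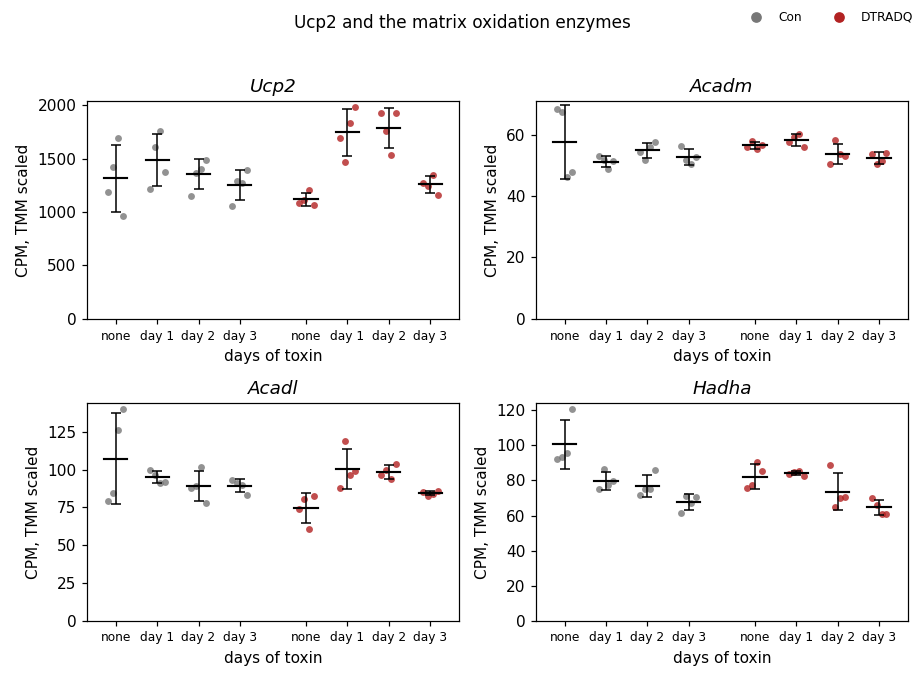
CPM (y axis, TMM scaled) of Ucp2, Acadm, Acadl and Hadha in each library by days of toxin (x axis), controls in grey and DTRADQ in red. Each point is 1 mouse, horizontal lines are group means and bars are SD (n = 4). Ucp2 is above its start in all DTRADQ libraries of days 1 and 2 and not in all of day 3, and control Acadl without DT splits into 2 libraries at 79.2 and 84.4 CPM and 2 at 126 and 140 CPM.

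The 3 matrix enzymes were measured on at least 243 reads per library. Acadm (ENSMUSG00000062908, chromosome 3, 153922357 to 153944632, minus strand), the medium-chain acyl-CoA dehydrogenase, was at 53.7, 50.5, 51.3 and 54.2 CPM in DTRADQ at day 3 and at 56.3, 51.8, 50.3 and 52.6 CPM in controls. The groups overlapped fully. The difference was −0.01 with an interval of −0.21 to 0.19 (confidence level 95%), and −0.03 at day 2. At day 1 all DTRADQ libraries (56 to 60.3 CPM) lay above all controls (48.8 to 53.1 CPM), and the difference of 0.19 (SE 0.10) had an adjusted p of 0.3853.

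Without DT Acadm was at 56, 58, 55.3 and 56.8 CPM in DTRADQ and at 68.5, 67.5, 46.3 and 48 CPM in controls. Control replicates 1 and 2 lay above all DTRADQ libraries and replicates 3 and 4 below, and the difference was −0.03 (adjusted p = 0.8505). Without control replicates 3 and 4 Acadm before toxin was lower in DTRADQ (−0.26, adjusted p = 0.0335). In that fit the controls fell with toxin, with log2 changes of −0.39, −0.30 and −0.35 at days 1, 2 and 3 (adjusted p = 8.5e-04, 0.0102 and 0.0021), where the fit of all libraries gave −0.17, −0.07 and −0.13, none past the threshold. The genotype difference in the response at day 1 was then 0.44 (adjusted p = 0.0069), against 0.22 (0.3547).

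Acadl (ENSMUSG00000026003, chromosome 1, 66830839 to 66863277, minus strand), the long-chain acyl-CoA dehydrogenase, is the gene called without toxin. It was at 74.1, 80.4, 60.7 and 82.8 CPM in DTRADQ and at 79.2, 84.4, 126 and 140 CPM in controls. The groups overlapped through control replicates 1 and 2, and the high values were those of the erythroid-rich replicates 3 and 4. Acadl was lower in DTRADQ by 0.52 (SE 0.14, log2 change −0.52, adjusted p = 0.0061). Without control replicate 3 it was at −0.40 (adjusted p = 0.0546), and without replicates 3 and 4 together at −0.13 (adjusted p = 0.5307).

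On toxin days the Acadl differences were 0.08, 0.14 and −0.08, none past the threshold. Its genotype difference in the response passed at day 1 (0.61, SE 0.20, adjusted p = 0.0396) and day 2 (0.67, SE 0.20, 0.0264) and not at day 3 (0.44, 0.1093). Without control no-DT replicates 3 and 4 these were 0.21 (adjusted p = 0.3893) and 0.28 (0.2253). The day 1 value was also lost on leaving out any 1 of 11 of the 16 libraries, all but DTRADQ no-DT replicates 2 and 4, control no-DT replicates 1 and 2 and DTRADQ day 1 replicate 1 (adjusted p from 0.0506 to 0.1210). The day 2 value was lost without replicate 3 of either no-DT group or replicate 4 of either day 2 group (0.0519 to 0.0722). Within DTRADQ marrow Acadl changed by 0.43 at day 1 and 0.40 at day 2 (adjusted p = 0.0617 and 0.0638). Each of these changes passed in 4 of 7 other settings, DESeq2 and the muscle covariate among them (adjusted p from 0.0023 to 0.0318 and from 0.0030 to 0.0311).

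Hadha (ENSMUSG00000025745, chromosome 5, 30118301 to 30155162, minus strand) is the alpha subunit of the trifunctional protein, which carries out the later steps on long chains. Its exons overlap those of Garem2 on the other strand by 78 bases, and the strand setting of the counting is not given in the sources used here. It was at 70.2, 66.3, 60.9 and 61.1 CPM in DTRADQ at day 3 and at 61.2, 71.3, 66.9 and 70.8 CPM in controls, fully overlapping (−0.06, interval −0.28 to 0.15). Without DT it was at 75.6, 77.4, 90.8 and 85.3 CPM against 92.1, 93.4, 95.7 and 121 CPM, with no overlap, and the difference of −0.29 (SE 0.11) narrowly missed the threshold (adjusted p = 0.0513).

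Hadha was the one of the 10 genes that fell with toxin in both genotypes. In controls it changed by −0.33, −0.38 and −0.57 at days 1, 2 and 3 (adjusted p = 0.0201, 0.0093 and 1.9e-04), and in DTRADQ by −0.35 at day 3 (adjusted p = 0.0167). The day 1 fall in controls was lost without control no-DT replicate 3 or 4 or day 1 replicate 1 or 3 (adjusted p from 0.0503 to 0.1068). Without control no-DT replicates 3 and 4 together, without a filter and in a fit of only the groups compared, neither the day 1 fall (adjusted p from 0.1965 to 0.3254) nor the day 2 fall (0.0951 to 0.2658) in controls passed, and in the last of these the day 3 fall did not either (0.0970). The day 3 fall in DTRADQ was lost without DTRADQ no-DT replicate 3 or day 3 replicate 2, 3 or 4 (0.0512 to 0.0935). Its partner subunit gene Hadhb changed by 0.00 in controls and −0.23 in DTRADQ at day 3, neither past the threshold (adjusted p = 0.9857 and 0.2252).

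Set side by side, the changes from no DT show how many genes moved within each genotype. In DTRADQ marrow 3 of the 10 rose at day 1 (Cpt1a, Ucp2 and Plin2) where 1.26% of all genes rose, 4.22% fell and 5.48% were called in all, and 5 rose at day 2 (Acot1, Cpt1a, Ucp2, Plin2 and Angptl4) where 4.27% rose, 4.85% fell and 9.11% were called in all. At day 3 5 rose (Cpt1a, Acot1, Plin2, Pdk4 and Angptl4) and Hadha fell, where 12.5% rose, 16.8% fell and 29.4% were called in all. In controls 1 rose and 1 fell at day 1 (Cpt1a and Hadha), where 16% of all genes rose, 17.4% fell and 33.4% were called in all. In controls Hadha fell at day 2 (13.8% rose, 14.4% fell, 28.3% in all), and Cpt1a rose and Hadha fell at day 3 (14.8% rose, 15.4% fell, 30.2% in all). The shares of the 10 genes in controls were not above the background. That background depends on the spread shared by all groups. In a fit of only the groups compared, fewer genes were called in controls than in DTRADQ marrow. At day 1 397 of 13248 genes rose and 587 fell in controls, against 712 and 988 of 13336 in DTRADQ. At day 3 349 of 13771 rose and 571 fell in controls, against 2810 and 3182 of 14010. None of the 10 passed in controls in that fit. The genotype difference in the response passed for 2 genes at day 1 (Acot1 and Acadl) where 6.51% of all genes were higher, 5.83% lower and 12.3% called in all. It passed for Acot1 and Acadl at day 2 (6.22% higher, 4.88% lower, 11.1% in all) and for 3 genes at day 3 (Acot1, Plin2 and Angptl4, with 9% higher, 12% lower and 21% in all). All of these were larger in DTRADQ. These comparisons share the libraries without DT.

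Between days 2 and 1 none of the 10 genes passed in DTRADQ, where 0.785% of all genes did (0.406% higher, 0.379% lower). The Angptl4 change was 0.70 (adjusted p = 0.2282) and the Acot1 change 0.81 (adjusted p = 0.3347). In controls none of the 10 passed and 0% of all genes did with edgeR, with 332 genes at an unadjusted p under 0.05, and DESeq2 also called 0.

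Counts of genes whose 4 DTRADQ libraries all lay above the 4 controls were also taken. They were 2 of the 10 at day 1, 5 at day 2 and 5 at day 3, beside 5.08%, 10.7% and 14.9% of all genes tested. None lay below all controls on a toxin day, where 8.87%, 10.7% and 20.4% of all genes did. Without DT 0 lay above (5.64% of all genes) and 1, Hadha, below (5.42%). The day 1 genes were Plin2 and Acadm, those of day 2 Ucp2, Ucp3, Acot1, Cpt1a and Plin2, and those of day 3 Acot1, Cpt1a, Pdk4, Angptl4 and Plin2. Of these, Plin2 and Acadm at day 1 and Ucp2 and Ucp3 at day 2 had not passed between genotypes.

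Levels can be compared between genes only per length of transcript. On the RPKM scale (CPM divided by the counted length in kilobases), the means over the 32 libraries were 203 for Ucp2, 62.7 for Plin2, 46.1 for Acadl, 18.7 for Acadm, 14.7 for Hadha, 12.4 for Cpt1a, 2.67 for Angptl4, 0.655 for Acot1, 0.394 for Pdk4 and 0.207 for Ucp3. The ranges over libraries of neighbours in this order overlapped at several places, Acadm (15.8 to 23.4) with Hadha (11.4 to 22.6) and Hadha with Cpt1a (7.24 to 18.7) among them. Acot1 reached the level the low-count filter asks for, 0.706 CPM, in 20 of the 32 libraries (11 of them DTRADQ with toxin) and Pdk4 in 26 (10).

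Across the 32 libraries, the pair with the highest Pearson correlation of log2 CPM among the 10 genes was Cpt1a with Plin2 (r = 0.81). Acot1 followed with Cpt1a (0.67) and Angptl4 (0.66). Hadha ran against Plin2 (−0.48). These are descriptions over libraries that share their groups, sequencing runs and scaling, and they hold the group differences given above.

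Among all tested genes the one most like Plin2 was Slc25a20 (r = 0.953 over 32 libraries), the carnitine-acylcarnitine carrier that takes Cpt1a's product into the matrix, followed by Il18bp (0.919) and Gpi1 (0.91). Cpt1a was most like Itga2b (0.877), Ltb4r1 (0.872) and Eml2 (0.861), Ucp2 most like Pld3 (0.871), and Hadha most like Rfc1 (0.905). The likeness was weaker for the rare genes, with 0.787 for Pdk4 and Gzme, 0.781 for Angptl4 and Cyp4b1, and 0.683 for Ucp3 and the chemokine gene Ccl7. Acadl was most like Pde6d (0.762) and Acadm most like Katna1 (0.757).

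**Figure D4:**
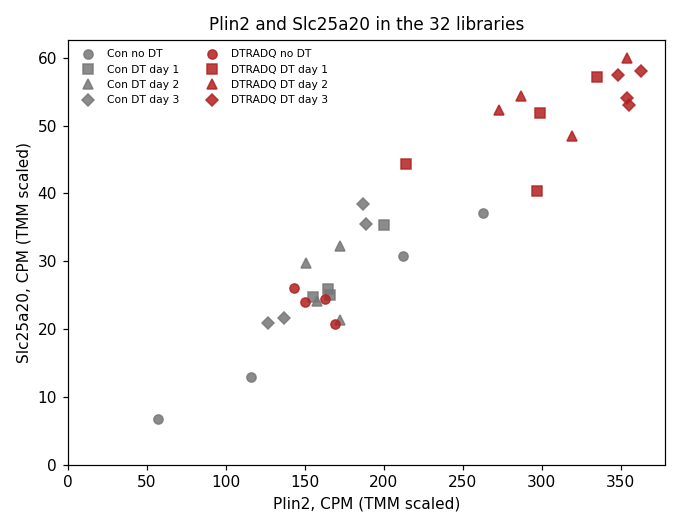
Plin2 (x axis) against Slc25a20 (y axis), both in CPM (TMM scaled), in the 32 libraries, controls in grey and DTRADQ in red, with a symbol for each toxin day. The DTRADQ libraries with toxin form the upper end, and the 2 lowest points are control replicates 3 and 4 without DT.

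Slc25a20 belongs to the 25 tested genes of a list of other beta-oxidation enzymes and carriers. At day 2 its levels were 52.3, 54.3, 48.5 and 60 CPM in DTRADQ and 21.4, 29.8, 24.1 and 32.3 CPM in controls. At day 3 they were 57.5, 54, 58.1 and 53.1 CPM against 21.6, 35.5, 38.4 and 20.9 CPM. No library of one genotype reached the other on either day. Slc25a20 was higher by 1.00 at day 2 (SE 0.27, adjusted p = 0.0182) and 0.93 at day 3 (SE 0.27, 0.0106). The day 2 call was lost without control day 2 replicate 1 or 3 (adjusted p from 0.0546 to 0.0657), and that of day 3 without control day 3 replicate 4 (0.0539).

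Of that list, 0 passed at day 1, and at days 2 and 3 Slc25a20 and the acyl-CoA dehydrogenase gene Acad11 were higher and 23 did not pass. Of all genes, 0.888%, 4.4% and 8.8% were higher at days 1, 2 and 3. The list medians were 0.03, 0.04 and 0.06, beside −0.01, −0.04 and −0.02 over all genes. In controls 8, 10 and 9 of the 25 rose with toxin at days 1, 2 and 3, where 16%, 13.8% and 14.8% of all genes rose. In DTRADQ marrow 1, 4 and 2 of the 25 rose, where 1.26%, 4.27% and 12.5% of all genes did, and the difference between these counts was not tested. The shares of all genes depend on the fit, as given above with the 10 genes. Without DT 5 of the 25 were already higher in DTRADQ than in controls and 1 lower, where 12.7% of all genes were higher and 14.4% lower. Acad11 was among those higher (0.93, adjusted p = 2.2e-04, or 0.1040 in a fit of only those groups). The Acad11 call of day 2 (0.54, adjusted p = 0.0373) was lost without replicate 3 of either group, DTRADQ replicate 2 or control replicate 4, and that of day 3 (0.48, 0.0303) without DTRADQ replicate 2 or control replicate 1 or 4. Cpt1b, the muscle form of Cpt1a, had 14 reads in all libraries and was not tested.

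Among 16 tested genes of fatty acid uptake and activation, 2 were higher and 3 lower at day 2, and 3 higher and 3 lower at day 3, beside 4.4% higher and 4.12% lower of all genes at day 2 and 8.8% and 14.1% at day 3. The acyl-CoA synthetase gene Acsl6 had the largest change, with log2 changes of −3.21 at day 2 (0.202 against 1.82 CPM, adjusted p = 7.9e-04) and −2.92 at day 3 (0.2 against 1.61 CPM, 1.5e-04), on 0 to 8 reads per DTRADQ library. Gpihbp1, which anchors lipoprotein lipase to capillaries, was higher at day 3 (1.17, adjusted p = 0.0056), a call lost with muscle markers as a covariate (0.89, 0.1037). Acsl1, the acyl-CoA synthetase that feeds Cpt1a, was at 340, 374, 288 and 392 CPM in DTRADQ at day 2 and at 196, 226, 253 and 200 CPM in controls, with no overlap (0.67, SE 0.13, adjusted p = 0.0016). At day 3 its levels overlapped (−0.05, adjusted p = 0.8277), and before toxin it was already higher in DTRADQ (0.71, adjusted p = 2.7e-04, or 0.1114 in a fit of only those groups). Slc27a4, a fatty acid transporter, was higher at day 2 (0.68, adjusted p = 0.0150) and day 3 (0.53, 0.0269), and the day 2 call was lost without replicate 3 of either group or control replicate 4 (0.0693 to 0.0754). Lpl, the lipase that Angptl4 inhibits, was lower at day 1 (−0.81, adjusted p = 0.0025) and day 2 (−0.59, 0.0237), and it is also among the stromal lineage markers, of which 15 of 16 were lower on those days. The scavenger receptor gene Cd36 was lower at day 3 (−1.10, adjusted p = 0.0031), a call lost with muscle markers as a covariate (−0.64, adjusted p = 0.1219). Without DT 4 of the 16 were higher and 4 lower in DTRADQ, where 12.7% of all genes were higher and 14.4% lower. Cd36 was then among the higher and Gpihbp1 among the lower, opposite to their day 3 differences. In a fit of only the groups without DT no gene was called.

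Of 14 tested genes of the lipid droplet and lipolysis, 3 were higher and 1 lower at day 2, and 3 higher and 2 lower at day 3, beside the same shares of all genes. The gene of adipose triglyceride lipase, Pnpla2, was higher at day 3 (51.3 against 32.5 CPM, 0.66, adjusted p = 0.0087, or 0.0530 without control replicate 4), and that of its activator, Abhd5, at day 2 (0.59, adjusted p = 0.0131), a call lost without replicate 3 of either group (0.0548 to 0.0704). Dgat2, which makes triglyceride, was higher at days 2 and 3 (0.71 and 0.51, adjusted p = 0.0156 and 0.0386), and the day 2 call was lost without replicate 3 of either group or control replicate 4 (0.0679 to 0.0863). Those that were lower were Cidec, a droplet protein of fat cells (at 0.0302 CPM against 0.537 CPM at day 3), and Mgll, the monoglyceride lipase (−0.85, adjusted p = 4.1e-04). Both Cidec values lie below the 0.706 CPM that the low-count filter asks for. Cidec was already lower in DTRADQ without DT (−2.06, adjusted p = 0.0340). That call was lost on leaving out any 1 of 4 of the 8 libraries (0.0773 to 0.3535). The fat cell perilipin Plin1 had 15 reads in all libraries and was not tested.

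**Figure D5:**
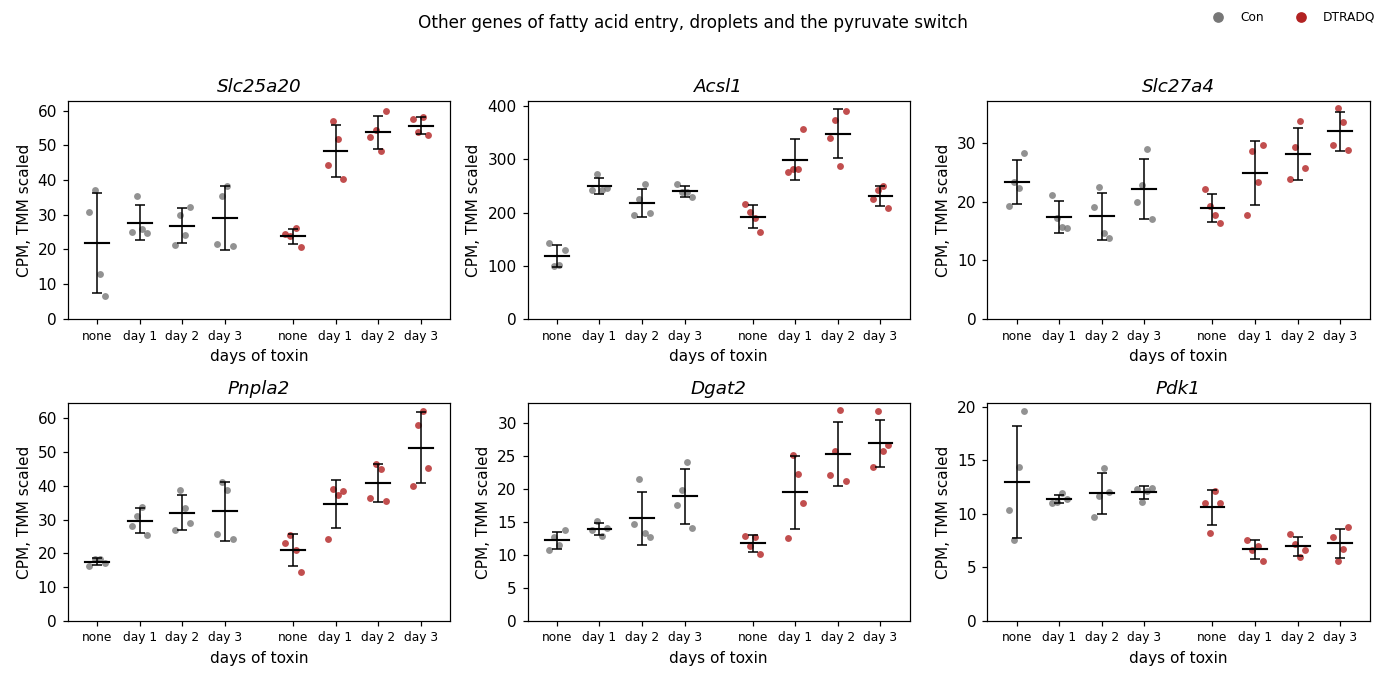
CPM (y axis, TMM scaled) of Slc25a20, Acsl1, Slc27a4, Pnpla2, Dgat2 and Pdk1 in each library by days of toxin (x axis), controls in grey and DTRADQ in red. Each point is 1 mouse, horizontal lines are group means and bars are SD (n = 4). Slc25a20 of DTRADQ is above all controls of the same day on days 1, 2 and 3, and Pdk1 is below them.

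At day 3 one kinase gene of pyruvate dehydrogenase, Pdk4, was higher in DTRADQ and another, Pdk1, lower. Pdk1 was the gene called among 13 of the pyruvate switch on toxin days other than Pdk4 itself. Of all genes, 3.9%, 8.52% and 22.9% were called in either direction at days 1, 2 and 3. At day 3 it was at 7.85, 5.59, 6.68 and 8.74 CPM in DTRADQ and at 12.3, 11.1, 12.1 and 12.4 CPM in controls, with no overlap. It was lower by 0.77, 0.78 and 0.73 log2 units at days 1, 2 and 3 (log2 change −0.77, −0.78 and −0.73, adjusted p = 0.0167, 0.0108 and 0.0047). The day 1 call was lost without DTRADQ replicate 4 or control replicate 3 (0.0551 to 0.0601), and that of day 2 without replicate 3 of either group (adjusted p up to 0.0556).

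Of 14 tested thioesterase, ketogenesis and peroxisome genes, none passed at days 1 and 2, where 0.888% and 4.4% of all genes were higher. At day 3 Acot2 was higher and Bdh1, a ketone body dehydrogenase, lower (−0.97, adjusted p = 0.0254), where 8.8% of all genes were higher and 14.1% lower. The Bdh1 call was lost without control replicate 3 or DTRADQ replicate 1, 2 or 3. The liver targets Cyp4a10, Cyp4a14 and Fgf21 had 0, 9 and 7 reads in all libraries. Of 7 tested relatives of the uncoupling proteins, 1 was higher at day 3, where 8.8% of all genes were higher and 14.1% lower. This was Slc25a4, the adenine nucleotide carrier of muscle and heart (0.46, adjusted p = 0.0420), with muscle markers higher in the same libraries. It did not pass with them as a covariate or without DTRADQ replicate 2 or 4 or control replicate 1, 2 or 4.

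The receptors were measured in the same libraries. Ppara had 6 reads in all 32 libraries together and was not tested. Ppard was at 1.14 to 5.53 CPM and did not differ past the threshold on any day (−0.08, 0.13 and −0.07 at days 1, 2 and 3). Pparg, the receptor of fat cells and macrophages, was at 10.4 to 14.3 CPM in DTRADQ at day 3 and at 15.9 to 20.9 CPM in controls. These groups did not overlap, and the difference of −0.51 (SE 0.19) had an adjusted p of 0.0545. Within DTRADQ marrow Pparg fell by day 3 (log2 change −0.70, SE 0.20, adjusted p = 0.0069).

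Of the 13 tested receptor and partner genes, none passed at days 1 and 2, and 1 was higher and 2 lower at day 3. Of all genes, 3.9% and 8.52% were called in either direction at days 1 and 2. At day 3, 8.8% were higher and 14.1% lower. At day 3 the coactivator gene Ncoa1 was higher (0.47, adjusted p = 0.0152, or 0.0641 without control replicate 4), and the corepressor gene Nrip1 (−0.98, adjusted p = 1.9e-04) and the coactivator gene Ppargc1b (−0.74, 0.0327) were lower. The Ppargc1b call was lost on leaving out any 1 of 6 of the 8 libraries, all but DTRADQ replicate 1 and control replicate 3 (0.0566 to 0.1037). No measurement here ties these genes to the changes of the 10 targets.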

How the data were processed

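Whole femur marrow RNA (Clontech SMARTer v1 kit, per the labels' protocols) was aligned and counted by the authors. Tools named in the submitters' processing notes are STAR 2.0.4b, featureCounts 1.45, Subread and bcl2fastq, with the build GRCm38. Which annotation was counted, whether strand was used and how multi-mapped reads were handled is not given in the sources used here. According to the files, and per the file headers, raw counts, CPM and RPKM were deposited for each of 41388 genes and 32 libraries. The deposited CPM equalled counts over library totals to within 4.4e-10, and the deposited RPKM equalled CPM over gene length within a relative 3.8e-14. Tests used the counts, and RPKM printed here was rebuilt from TMM-scaled CPM and the deposited lengths.

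Genes were filtered with filterByExpr (minimum count 10), which left 14527, and scaled by TMM. One edgeR 4.0.16 quasi-likelihood model of the 8 group means gave 15 comparisons, with Benjamini-Hochberg adjustment within each (threshold 0.05) in R 4.3.3. SE is the absolute log2 change over the square root of F, and intervals are 1.96 SE on each side. The fit was tested on simulated data. Alternatives were DESeq2 1.42.0, its size factors in edgeR, no filter, only the groups compared, the mean log2 level of the skeletal muscle markers as a covariate, a block for replicate number, and the omission of single libraries. The omission of control no-DT replicates 3 and 4 together was chosen after seeing the data. The 10 genes and the lists of other genes were chosen with earlier results of these data known. Named genes besides the 10 are, per list and genotype comparison, up to 3 that passed with the smallest adjusted p, plus Ppara, Ppard, Pparg, Acot2 and Hadhb; some results of that rule are not reported here. Genes with few reads, genes at 0 and lists named by total reads fall outside that rule and were chosen after their values were seen. Each library is 1 mouse. Totals of 8.97 to 22.93 M reads leave Ucp3, Acot1 and Pdk4 on few reads.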

Additional observations from a re-analysis of the deposited data

Results flagged for a closer look

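In groups of 4, a library was looked at when its gap to the nearest of the others was large for the group's range by Dixon's criterion, which chance gives in about 1 group in 20. This held for 4 of the 80 groups of the 10 genes. Pdk4 was highest in DTRADQ day 1 replicate 3, at 1.98 CPM against 0.662 to 0.876 CPM in the others, and lowest in DTRADQ day 3 replicate 2, at 2.49 CPM against 3.64 to 3.71 CPM. Angptl4 was highest in DTRADQ day 3 replicate 3, at 13.9 CPM against 12.7 to 12.9 CPM. Hadha was highest in control no-DT replicate 4, at 121 CPM against 92.1 to 95.7 CPM.

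The change from no DT differed between the genotypes, by edgeR's quasi-likelihood test of the difference itself, in 7 cases. For Acot1 the difference was 1.77, 2.44 and 2.39 log2 units at days 1, 2 and 3 (adjusted p = 0.0416, 0.0053 and 0.0022). For Acadl it was 0.61 and 0.67 at days 1 and 2 (0.0396 and 0.0264). For Angptl4 and Plin2 it was 1.05 and 1.21 at day 3 (0.0429 and 0.0123).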

How the results depend on the processing

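At day 3 the count of 5 genes between genotypes was the same under every setting and every left-out library. Counts elsewhere moved. Without DT the count of 1 was 2 with DESeq2 size factors, with the muscle covariate, with DESeq2 and without control no-DT replicates 3 and 4 together, and 0 in a fit of only the groups compared. Without those 2 libraries the genes called were Acadm and Plin2, both lower in DTRADQ, and Acadl was lost. At day 1 the count of 1 was 2, and at day 2 that of 3 was 5, with DESeq2 and without those 2 libraries. In a fit of only the groups compared, the 1 gene at day 1 was Plin2, and Ucp3 was not tested. The genotype difference in the response (2 genes at days 1 and 2) was 0 at day 1 and 1 at day 2 without a filter and in a fit of only the groups compared, and 4 at day 2 with DESeq2. Within controls the counts of 2, 1 and 2 at days 1, 2 and 3 were 0, 0 and 0 in a fit of only the groups compared, and 1 and 0 at days 1 and 2 without a filter. They were 1 at day 3 with DESeq2 size factors, the muscle covariate and DESeq2, and 2 at day 2 without the 2 control libraries. In that last fit the day 2 genes were Acadm and Plin2, both lower, and Hadha was lost. At day 1 the same genes took the place of Cpt1a and Hadha in it. Within DTRADQ the day 1 count of 3 was 1 with the muscle covariate and 5 with DESeq2 and without the 2 control libraries. The 1 gene with the covariate was Acadl, and Cpt1a, Ucp2 and Plin2 were all lost. Leaving out 1 library gave 0 to 2 between genotypes without DT, 0 to 1 at day 1, 2 to 4 at day 2 and 5 to 5 at day 3. For the difference in the response it gave 0 to 2, 1 to 4 and 2 to 4, in controls 1 to 2 on each day, in DTRADQ 1 to 5, 4 to 5 and 5 to 6, and 0 to 0 for day 2 against day 1 in both genotypes.

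Of 36 changes of the 10 genes that passed, 19 kept their call under all planned settings other than leaving out a library, and 20 under every left-out library. The sign changed under some alternative in 116 cases that passed in neither fit. Plin2 in controls against no DT went from 0.08 to −0.45 at day 1 and from 0.01 to −0.53 at day 2 without control no-DT replicates 3 and 4. The Angptl4 difference in the response at day 3 was lost without DTRADQ no-DT replicate 1, 2 or 4, control no-DT replicate 2 or 3, any DTRADQ day 3 library or control day 3 replicate 1 or 2. That of Acot1 at day 1 was lost without DTRADQ no-DT replicate 1, 2 or 3, control no-DT replicate 2 or 4, DTRADQ day 1 replicate 1, 2 or 3, or control day 1 replicate 1, 3 or 4.

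Replicate numbers were shared between groups. Over 112 pairs of libraries with the same number, the median correlation of deviations from the group means was 0.057 (−0.157 to 0.356), against −0.013 for other pairs, and 17 of 32 libraries matched best with their own number. That is a hint from the data, not from the design: the labels tie no number to a litter or batch and some same-number pairs ran against each other, so the model without a block was kept. With the replicate number as a block, the day 2 genotype count was 4, with Angptl4 at 0.68 (adjusted p = 0.0451), and the other counts of the 10 genes did not change. Depth limits Ucp3 (1 to 26 reads per library), Acot1 (3 to 39) and Pdk4 (4 to 76), for which a difference that did not pass may be undetectable at this depth.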
